A study of Mus musculus with 10 samples.

Results

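Chemokines are small secreted proteins that direct the movement of leukocytes, and their receptors are G protein-coupled receptors on the responding cells. This report covers the 59 chemokine genes on the array, 36 ligands and 23 receptors, out of 25160 named genes. They were taken by gene symbol: ligands begin with Ccl, Cxcl, Cx3cl or Xcl and receptors with Ccr, Cxcr, Cx3cr, Xcr or Ackr, each followed by a digit. The rule used names and no measured value.

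Transcripts were measured in mouse colon on 10 Agilent arrays, each of which held RNA of a pair of samples in different dyes. Colon tissue came from male Axin2CreERT2 mice crossed with Trp53 fl/fl mice, 2 with Trp53 deleted (KO) and 2 wild type (WT). All 4 had been given 2% dextran sodium sulfate (DSS), a chemical that damages the gut lining, over 5 to 7 days, followed by 2 months of recovery before collection. Organoids, epithelial cultures from mouse colon, formed 3 groups of 2 samples: WT, KO and KOWI.

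Axin2CreERT2 is a tamoxifen-inducible recombinase that is active in cells expressing Axin2, so deletion is aimed at those cells. Which cells of the tissue kept their Trp53 alleles was not measured. KO organoids came from VillinCreERT2 x Trp53 fl/fl cultures given 800 nM 4OH-tamoxifen for 2 days and were then selected with Nutlin-3A, which acts on cells that have p53. KOWI are Trp53-deleted organoids labelled Wnt-independent, kept in medium without surrogate Wnt (sWnt) and CHIR-99021, a GSK3 inhibitor that switches on Wnt signalling. WT and KO grew in full medium with 0.328 nM sWnt and 3 µM CHIR-99021. All organoid media held 25% R-spondin 1 conditioned medium, 100 ng/ml noggin, 50 ng/ml EGF and 0.5 µM A83-01. KOWI against KO therefore does not separate the medium from any adaptation to it. KOWI against WT does not separate loss of Trp53 from the medium either. KO against WT does not separate loss of Trp53 from the Nutlin-3A selection. Each mouse has a number in the labels, but the origin of the organoid replicates is not stated, so organoid p-values reflect only how these samples vary, and that variation could be technical.

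In the intestine, epithelial cells make ligands of their own. CXCL1, CXCL2, CXCL3 and CXCL5 carry the ELR sequence before the paired cysteines and attract neutrophils through CXCR2. CXCL9, CXCL10 and CXCL11 act on CXCR3 of activated T cells. CCL20, CCL25 and CCL28 serve mucosal lymphocytes, and the atypical receptors ACKR1 to ACKR4 bind ligands without the usual G protein signal and, for most, remove them. Many ligand genes have κB sites, where NF-κB binds, and some have interferon response elements.

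Promoters of Cxcl1, Cxcl3 and Cxcl10, which were among the ligands highest in KO and KOWI organoids, are shown first because their windows hold the same kind of motif. Each run gives the 250 bases before the RefSeq start site on GRCm38.p6, 5′ to 3′ on the gene's strand. Capitals mark matches to a κB-type motif, which is GGGA and TTCC with any 2 bases between them, or to a motif of interferon response elements, which is GAAA and GAAA with any 2 bases between them. Both strands were searched for each. Cxcl2, whose probe was not well above background in any organoid channel, is given for comparison.
Cxcl1, chr5:90890995-90891244, plus strand: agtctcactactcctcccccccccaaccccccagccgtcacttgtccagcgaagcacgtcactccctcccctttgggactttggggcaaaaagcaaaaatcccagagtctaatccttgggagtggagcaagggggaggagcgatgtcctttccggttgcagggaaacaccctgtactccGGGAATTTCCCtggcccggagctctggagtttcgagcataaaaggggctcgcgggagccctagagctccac
Cxcl2, chr5:90903649-90903898, plus strand: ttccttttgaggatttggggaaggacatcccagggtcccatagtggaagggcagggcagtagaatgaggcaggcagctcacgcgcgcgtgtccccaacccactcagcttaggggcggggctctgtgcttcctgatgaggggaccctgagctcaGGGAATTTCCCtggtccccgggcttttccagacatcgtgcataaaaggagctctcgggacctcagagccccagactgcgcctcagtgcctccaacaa
Cxcl3, chr5:90785851-90786100, plus strand: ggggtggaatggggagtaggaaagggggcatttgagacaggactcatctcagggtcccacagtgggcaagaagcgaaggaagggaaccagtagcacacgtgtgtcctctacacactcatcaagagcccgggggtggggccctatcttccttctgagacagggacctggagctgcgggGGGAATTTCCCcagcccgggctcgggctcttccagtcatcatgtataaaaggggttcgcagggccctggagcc
Cxcl10, chr5:92348890-92349139, minus strand: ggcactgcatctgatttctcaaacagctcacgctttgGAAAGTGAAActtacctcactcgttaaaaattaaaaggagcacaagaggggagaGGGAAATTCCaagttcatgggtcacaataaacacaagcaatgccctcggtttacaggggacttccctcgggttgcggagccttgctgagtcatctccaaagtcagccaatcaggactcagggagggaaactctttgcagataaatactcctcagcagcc

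Cxcl1, Cxcl2 and Cxcl3 each held GGGAATTTCCC, which gives overlapping matches to the κB-type motif on both strands. It began 71 bases before the start in Cxcl1, 97 in Cxcl2 and 73 in Cxcl3. The Cxcl10 window held the match GGGAAATTCC, beginning 159 bases before the start, and the interferon motif match GAAAGTGAAA, beginning 213 bases before it. The κB-type motif was found in 1.21% of all 32851 RefSeq promoter windows of the same length and in 5 of 34 windows of chemokine ligand genes. The interferon motif was found in 2.98% of all windows and in 3 of the 34. The windows of Cxcl9, Cxcl15, Ccl20, Ccl25, Ccl28 and Cx3cl1 were also read and held no match to either motif. A match describes letters only and is not a measured binding site. The part of these motifs in the ratios was not tested. Windows for Cxcl5 and Ccl5 were not used here.

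On mm9, the build of the array's coordinates, these genes lie in clusters. The probes of Cxcl5, Cxcl3, Cxcl15, Cxcl1 and Cxcl2 lie in that order on chromosome 5 between 91190490 and 91334593. RefSeq places Ppbp and Pf4, the platelet chemokine genes, between Cxcl5 and Cxcl3. The probes of Cxcl9, Cxcl10 and Cxcl11 lie further along chromosome 5, between 92752191 and 92788626. On chromosome 11, the probes of Ccl2, Ccl7, Ccl11, Ccl12, Ccl8 and Ccl1 lie between 81850650 and 81990227, and those of Ccl5, Ccl9, Ccl6, Ccl3 and Ccl4 between 83339296 and 83478097.

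Each channel had 44.6% to 59.1% of its spots well above background. Outlier marks covered 1.33% to 4.41% of spots on tissue arrays, 0.808% and 2.18% on the arrays pairing KO with WT organoids, and 13.7% to 16.3% on the 4 that held KOWI. The probe of Trp53, the targeted gene, was well above background in all 4 WT organoid channels and in 0 of the 4 of KO and of KOWI. The tissue pairs gave log2 ratios of -0.46 and 0.04 for it. Whether the probe, on chromosome 11 of mm9, lies in the deleted part is not known here. The epithelial markers fixed for the samples (Epcam, Cdh1, Krt8, Krt18, Krt19, Krt20, Vil1 and Cdx2) were above background in every channel of every group.

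Tissue showed more of the family than organoids did. A gene counted as detected where its probe was well above background in all 4 channels of at least 1 group. This held for 39 genes in tissue and 25 in organoids, with 23 detected in both, 16 only in tissue, 2 only in organoids and 18 in neither. Over all 25160 named genes, 14003 were detected in tissue and 14582 in organoids. The organoid pair were Ccl25, the ligand of CCR9, and Cxcl15, a CXC ligand. Ccl25 was nevertheless above background in 3 of 4 channels of each tissue group. Ccr1, Ccr4, Ccr10, Xcr1 and Ccl22 were not above background in any channel.

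Of the 16 genes detected only in tissue, 8 were receptors. Of all 23 receptors, 14 were detected in tissue and 6 in organoids, where Ccr2, Ccr6, Cxcr2, Cxcr3 and Cxcr4 had 0 of 12 channels above background. Leukocyte markers other than those of neutrophils were also fewer in organoids. All 5 general leukocyte genes were above background in every tissue channel, against 1 in WT, 1 in KO and 3 in KOWI organoids. Among their defining genes, Cd52, Adgre1 and Cd3g were above background in 0 of 12 organoid channels and Ptprc in all 12. Of 11 macrophage and monocyte markers, 10 were above background in every channel of tissue and 5 in each organoid group, and of 11 T cell markers 9 in WT tissue and 4, 3 and 4 in WT, KO and KOWI organoids. Of 9 neutrophil markers, 6 were above background in every channel of each tissue group, and 4, 4 and 6 in WT, KO and KOWI organoids. Ngp, a neutrophil marker, was above background in 0 tissue channels and in 3, 3 and 4 channels of WT, KO and KOWI organoids. Of 9 fibroblast markers, 9 were above background in tissue and 2, 2 and 1 in WT, KO and KOWI organoids.

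A gene entered a test only where outlier spots did not break its fit. In tissue 37 of the 39 detected genes were fitted; Ccr6 and Ccr9 were not. In organoids 14 of the 25 were fitted, and 11 were not: Ccl2, Ccl9, Ccl21b, Ccl25, Ccl28, Cxcl12, Cxcl16, Ccr7, Cxcr6, Ackr1 and Ackr3. All 59 genes are thereby accounted for, as fitted, set aside for outlier spots or dim. Levels below are log2 intensities of a sample within its experiment, and they cannot be compared between genes or between tissue and organoids.

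In colon tissue 2 months after DSS, most chemokine genes stood above WT in KO mice, but limma called none of them. Of 37 fitted genes, 29 had a positive log2 KO over WT, with a median of 0.28, against 6244 of 12768 genes and a median of 0.00 over the array. Of the 37, Ccl24, Ccr2 and Cxcr2 entered only through KO and Cxcl9 and Cxcr4 only through WT; among the 32 genes above background in both groups, 26 were positive, with a median of 0.28. The median of the 37 was 0.10 in mouse pair 1 and 0.66 in pair 2, so the shift was carried mostly by pair 2. Called genes numbered 0 of 37, as over the whole array (0% of 12768 genes called). At an unadjusted p under 0.05 there were 11 of 37, 10 of them positive, beside 14.8% of all genes tested. In separate-channel fits that left out single mice, the median ran from 0.05 (without WT mouse 2) to 0.55 (without WT mouse 1). With median centring of arrays in place of loess, limma called 8 of 37, beside 6.85% of all genes called: Ackr2, Ackr3, Ackr4, Ccl8, Ccl11, Ccl28, Ccr2 and Cxcl12. Among these 8 the adjusted p followed the size of the ratio, from 0.90 in Ackr2 down to 0.63 in Ccl8. The order did not follow how well the pairs agreed: Ccl8 was called, although its pairs in the main fit were at -0.07 and 1.42. The values that follow describe 2 pairs of mice and are not calls. In whole tissue, more cells of a type and more RNA per cell cannot be told apart.

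**Figure D1:**
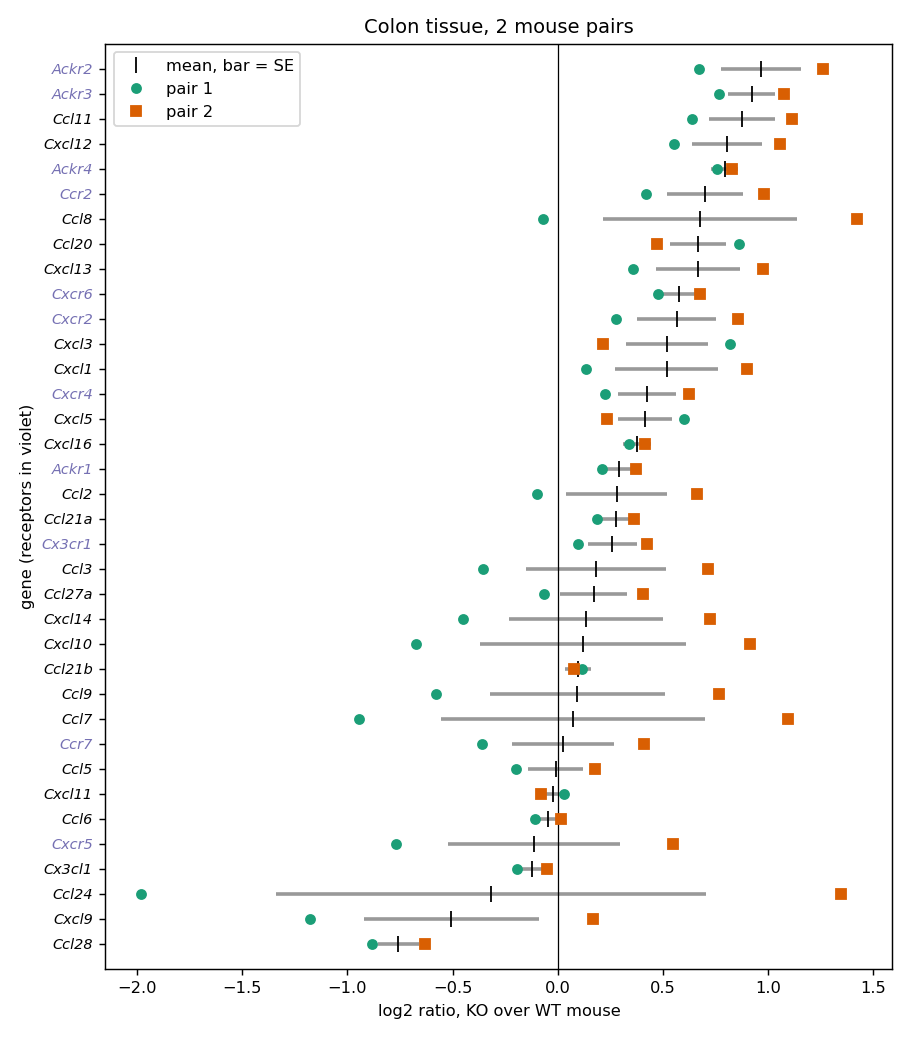
Log2 ratio of the KO over the WT mouse in tissue for fitted genes, in pair 1 (circles) and pair 2 (squares), with the mean of both (tick) and its SE (grey bar). The 4 atypical receptors were positive in both pairs, Ccl28 was negative in both, and Ccl24, Ccl7 and Cxcl10 had opposite signs in the pairs.

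The atypical receptors ran one way. All 4 were positive in both pairs, with a median of 0.86. Ackr4, which scavenges CCL19, CCL21 and CCL25, read 8.46 and 8.73 in the WT mice and 9.22 and 9.55 in the KO mice. Both KO values lay above both WT values. Its log2 ratio in the pairs was 0.76 and 0.83 (mean 0.79, SE 0.06, limma adjusted p = 0.249), and its other probe gave 0.39 and 0.34.

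Ackr3, which scavenges CXCL12, read 12.88 and 12.46 in WT and 13.64 and 13.54 in KO. Its groups did not overlap, and the ratio was 0.77 and 1.08 (mean 0.92, SE 0.11, limma adjusted p = 0.249). Ackr2, which scavenges inflammatory CC ligands, read 9.22 and 9.33 in WT and 9.89 and 10.59 in KO. The groups were again apart, with ratios of 0.67 and 1.26 (mean 0.97, SE 0.19, limma adjusted p = 0.281). The other Ackr2 probe was above background in 0 of 8 tissue channels and gave 0.01 and 0.13. Ackr1, which binds many ligands on venules, had a smaller ratio of 0.21 and 0.37 (mean 0.29, SE 0.08, limma adjusted p = 0.328). Its WT values of 12.32 and 12.95 overlapped its KO values of 12.53 and 13.32. The other Ackr1 probe, above background in 8 of 8 tissue channels, gave 0.01 and 0.77.

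Among the other receptors, Cxcr6, which marks resident T cells, read 9.01 and 9.87 in WT and 9.49 and 10.55 in KO. The mice differed by pair, so the groups overlapped, but within pairs the ratio was 0.48 and 0.67 (mean 0.58, SE 0.09, limma adjusted p = 0.261). Ccr2, the receptor of inflammatory monocytes, was at 0.42 and 0.98, with 2 of 4 WT channels above background and 4 of 4 KO channels. Cxcr2, the neutrophil receptor, was at 0.28 and 0.86 with the same detection. Both Ccr2 and Cxcr2 entered the fit only through KO, so the filter favoured a positive ratio.

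The ligands were mixed: 18 of 25 were positive, with a median of 0.17, and in pair 1 their median was -0.07. Ccl28, an epithelial chemokine that draws antibody-secreting cells to mucosa, was the lowest in the mean. It read 13.64 and 14.22 in WT and 12.75 and 13.59 in KO. Both KO values lay below both WT values, with ratios of -0.88 and -0.63 (mean -0.76, SE 0.10, limma adjusted p = 0.249), and its other probe gave -0.39 and -0.52.

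On the positive side, Cxcl16, the ligand of CXCR6, read 11.57 and 11.94 in WT and 11.91 and 12.36 in KO. The groups overlapped slightly, while the ratio was close in the pairs at 0.34 and 0.41 (mean 0.38, SE 0.07, limma adjusted p = 0.265). Ccl11, which attracts eosinophils, read 8.95 and 10.25 in WT and 9.58 and 11.37 in KO. Pair 2 was higher in both genotypes, and the ratio was 0.64 and 1.11 (mean 0.88, SE 0.16, limma adjusted p = 0.273). With mice unpaired and without KO mouse 2, the Ccl11 ratio was -0.02. Cxcl12, a stromal ligand of CXCR4 and ACKR3, was at 0.55 and 1.06 (mean 0.80), and its other probe gave 0.71 and 1.60. Ccl20, which draws CCR6-bearing lymphocytes, was at 0.86 and 0.47.

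Ligands and receptors that act together did not share a pattern throughout. The mean log2 KO over WT was 0.80 for Cxcl12, 0.92 for Ackr3 and 0.42 for Cxcr4. Cxcl16 and Cxcr6 stood at 0.38 and 0.58. Ccl2 was at -0.10 in pair 1 and 0.66 in pair 2, while its receptor Ccr2 was at 0.42 and 0.98. Cxcl13, which organises lymphoid follicles, was at 0.67 while its receptor Cxcr5 was at -0.77 in pair 1 and 0.55 in pair 2. The CXCR2 ligands Cxcl1, Cxcl3 and Cxcl5 were at 0.52, 0.52 and 0.42, beside 0.57 for Cxcr2. None of these was called.

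Several inflammatory genes went opposite ways in the pairs. Ccl24, an eosinophil chemokine, was at -1.98 in pair 1 and 1.35 in pair 2, and WT mouse 1 read 11.56 against 7.85 in WT mouse 2. Ccl7, a CCR2 ligand, was at -0.95 and 1.09, and Cxcl10 at -0.67 and 0.91. Cxcl9 was at -1.18 and 0.17, Ccl9 at -0.58 and 0.77, and Ccl8 at -0.07 and 1.42. For each of these genes the SE was at least 0.42, so no direction can be given from these mice. Ccl21b and Cxcl11 were bright and nearly level, at 0.12 and 0.08 and at 0.03 and -0.08.

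Cell type markers moved beside these genes in tissue. Fibroblast markers were positive for 8 of 8 genes (median 0.19), among them Lum at 1.58 and Fap at 0.90. T cell markers were positive for 9 of 9 (median 0.21), macrophage and monocyte markers for 8 of 9 (median 0.25), endothelial markers for 4 of 5 (median 0.30), skeletal muscle markers for 5 of 5 (median 0.39) and squamous skin markers for 4 of 4 (median 0.24). General leukocyte markers were positive for 4 of 4 (median 0.19), neutrophil markers for 2 of 3 (median 0.19), dendritic cell markers for 3 of 4 (median 0.39) and B and plasma cell markers for 0 of 3 (median -0.13). Epithelial markers were negative for 8 of 8 genes (median -0.12), with Cdx2 at -1.08. Most positive medians were larger in pair 2. In pairs 1 and 2 they were 0.02 and 0.47 for fibroblast, 0.06 and 0.31 for T cell and -0.05 and 0.44 for macrophage and monocyte markers. Endothelial markers were at -0.06 and 0.56, general leukocyte markers at 0.03 and 0.36 and dendritic cell markers at 0.22 and 0.68. Skeletal muscle (0.53 and 0.25) and squamous skin markers (0.35 and 0.10) were higher in pair 1. The part of these cell types in the chemokine values was not tested.

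In organoids, a small group of ligands stood above WT in both KO and KOWI. They were the neutrophil chemoattractants Cxcl1, Cxcl3 and Cxcl5, the CXCR3 ligand Cxcl10, and Ccl5, which attracts T cells and monocytes. In KOWI over WT, Cxcl3, Cxcl10, Cxcl5 and Ccl5 rose at an adjusted p under 0.05, by log2 values from 1.12 to 2.65. In KO over WT the same ligands and Cxcl1 read between 1.24 and 1.86, but limma called none. The other 9 fitted genes lay between -0.22 and 0.31 in KO over WT.

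**Figure D2:**
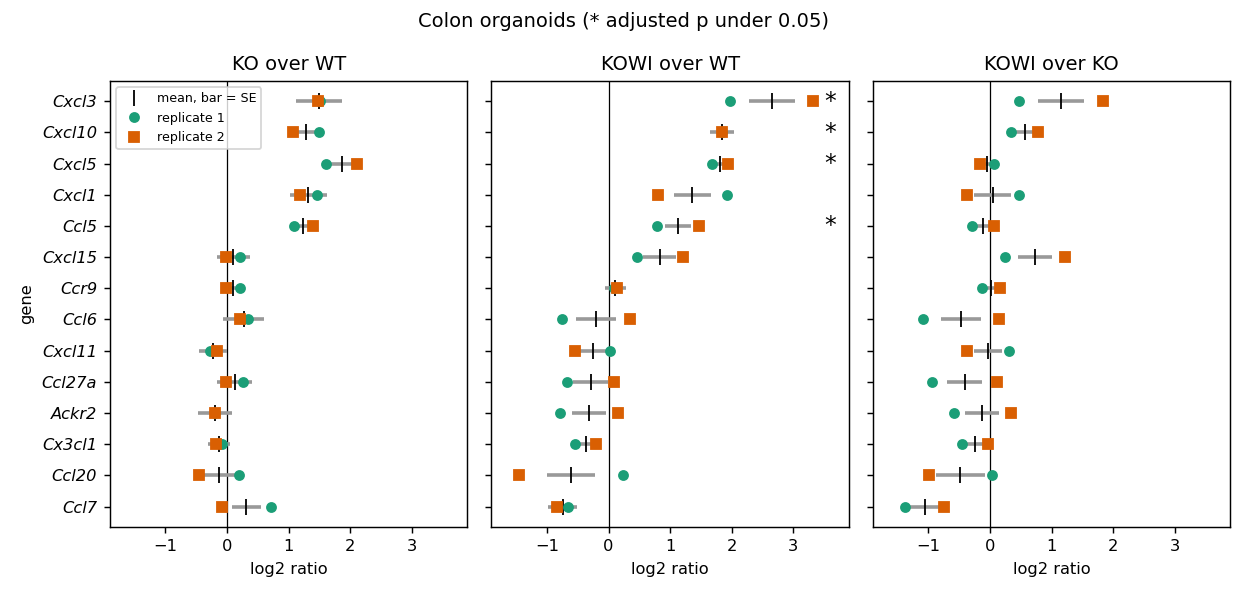
Log2 ratio of each fitted gene in organoids for KO over WT, KOWI over WT and KOWI over KO, in replicates 1 (circles) and 2 (squares), with the mean (tick) and its SE (grey bar); a star marks an adjusted p under 0.05. Cxcl3, Cxcl10, Cxcl5 and Ccl5 carry the star in KOWI over WT, and Cxcl1 lay with them in both comparisons against WT.

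For KO over WT, 0 of 14 genes were called (0% of 10148 genes called over the array), and 5 of 14 had an unadjusted p under 0.05, all positive, beside 5.51% of all genes tested. For KOWI over WT, 4 of 14 genes were called, all higher, beside 3.49% of all genes called higher. The unadjusted p was under 0.05 for 7 of 14, beside 23.5% of all genes. The 14 include Cxcl15, which entered only through KOWI, and Ccl7 and Ackr2, which were not above background in every KOWI channel; among the 11 genes above background in both groups, 3 were called higher, beside 2.35% of all genes under that filter, and Ccl5 was not. Over all 14 genes the median was 0.20 in KO and -0.04 in KOWI, against 0.06 and 0.02 over the array. Both comparisons use the same WT samples. The count of 4 was 0 without KO replicate 2 or without KOWI replicate 2, 2 without either WT replicate, and 0 on the authors' deposited ratios, where the adjusted p of these ligands ran from 0.0649 to 0.0918. All 4 ratios stayed positive in each of these fits.

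Every organoid array set a replicate 1, labelled with Cy3, against a replicate 2 of another group, labelled with Cy5. Dye and replicate number therefore cannot be told apart and were fitted as 1 term. The ratio within a replicate is computed around the loop of arrays, and the direct array ratios are given beside it.

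Cxcl3 had the largest ratio of KOWI over WT among the 14 fitted genes. It read 8.33 and 7.38 in the WT organoids, 9.50 and 8.56 in KO and 10.54 and 11.08 in KOWI. All KO values were above all WT values and all KOWI values above both. Against WT, KO stood at 1.51 and 1.48 in its replicates (mean 1.50, SE 0.37, limma adjusted p = 0.620) and, for KOWI, 1.97 and 3.32 (mean 2.65, a 6.26-fold level, SE 0.37, limma adjusted p = 0.0274). Direct arrays gave 0.82 and 2.62 for KO over WT and 2.21 and 2.64 for KOWI over WT.

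Cxcl5 had the smallest p of the 14 genes in KO over WT, and its replicates differed widely. It read 11.71 and 10.01 in WT, 13.29 and 11.68 in KO and 13.45 and 11.43 in KOWI. Replicate 1 was above replicate 2 in every group, so WT replicate 1 lay above replicate 2 of KO and of KOWI. Within replicates the ratio was 1.61 and 2.11 in KO (mean 1.86, a 3.62-fold level, SE 0.19, limma adjusted p = 0.173) and 1.67 and 1.94 in KOWI (mean 1.81, SE 0.19, limma adjusted p = 0.0184). The direct arrays that held WT replicate 1 gave 0.11 for KO and -0.12 for KOWI, whereas those with WT replicate 2 gave 3.67 and 3.67. The call rests on the replicate and dye term: without it, limma's adjusted p for KOWI over WT was 0.320.

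Cxcl10 read 8.85 and 8.53 in WT, 9.78 and 9.48 in KO and 10.89 and 10.31 in KOWI. The groups did not overlap and the replicates were close. The ratio to WT was 1.49 and 1.07 in KO (mean 1.28, SE 0.19, limma adjusted p = 0.333) and 1.84 and 1.84 in KOWI (mean 1.84, a 3.59-fold level, SE 0.19, limma adjusted p = 0.0184). All 4 direct arrays against WT were positive, from 0.91 to 1.99. Its neighbour Cxcl11 read -0.22 in KO and -0.26 in KOWI; RefSeq lists Cxcl11 as a transcribed pseudogene in this assembly. Cxcl9 was dim in organoids.

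Ccl5 read 9.24 and 8.56 in WT, 10.43 and 9.37 in KO and 9.92 and 10.61 in KOWI. Both WT values lay below all others. The ratio was 1.08 and 1.39 in KO (mean 1.24, SE 0.21, limma adjusted p = 0.384) and 0.79 and 1.46 in KOWI (mean 1.12, a 2.18-fold level, SE 0.21, limma adjusted p = 0.0487). This call sat at the threshold and did not hold without a replicate term (adjusted p = 0.0796) or without any single sample (adjusted p from 0.0572 to 0.534).

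Cxcl1 read 8.92 and 9.41 in WT, 9.80 and 10.26 in KO and 10.90 and 10.26 in KOWI. Its WT values were below all others, yet it missed the threshold. The ratio was 1.46 and 1.18 in KO (mean 1.32, SE 0.30, limma adjusted p = 0.549) and 1.92 and 0.80 in KOWI (mean 1.36, SE 0.30, limma adjusted p = 0.063). All 4 direct arrays against WT were positive, from 1.00 to 1.87.

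**Figure D3:**
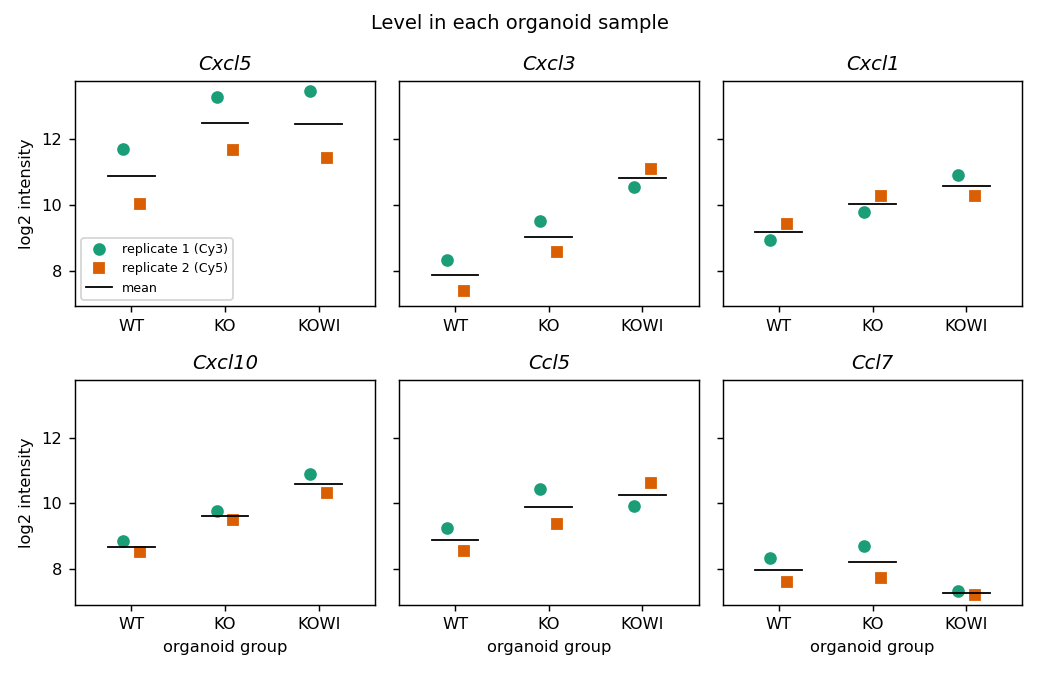
Log2 intensity of 6 ligand genes in each organoid sample, with replicate 1 as circles, replicate 2 as squares and the mean of each group as a line. The group means of Cxcl3 and Cxcl10 were lowest in WT and highest in KOWI, Cxcl5 differed between replicates in every group, and Ccl7 was lowest in KOWI.

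The remaining genes of the chromosome 5 cluster did not behave as a block. Cxcl15 read 6.98 and 6.60 in WT, 7.19 and 6.71 in KO and 7.23 and 8.49 in KOWI. It was above background in 1 of 4 channels in WT and in KO and in 4 of 4 in KOWI, with KOWI over WT at 0.46 and 1.21. It entered the fit only through KOWI, where it is high, so these ratios are a description and no test is given. Cxcl2 was dim in every group, although its promoter window holds the same κB-type sequence as those of Cxcl1 and Cxcl3. Pf4 was at 0.49 and 1.13 in KO over WT and at -0.93 and 1.38 in KOWI over WT.

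Between KOWI and KO, limma called 0 of 14 genes, beside 0.424% of all genes called, and 4 of 14 had an unadjusted p under 0.05, beside 14.3% of all genes. Cxcl3 stood at 0.46 and 1.84 (mean 1.15, SE 0.37, limma adjusted p = 0.254) and Cxcl10 at 0.35 and 0.77 (mean 0.56, SE 0.19, limma adjusted p = 0.274). The other 2 of the 4 were Ccl7, which was negative and did not enter through KOWI, and Cxcl15, which entered only through KOWI. Without WT replicate 2, Cxcl3 was called at 1.37 (limma adjusted p = 0.0387). For the other 3 ligands the difference between KOWI and KO was small against its interval. Its 95% confidence interval ran from -0.53 to 0.43 for Cxcl5, from -0.70 to 0.79 for Cxcl1 and from -0.65 to 0.43 for Ccl5. These intervals hold differences of either sign.

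Ccl7, which recruits monocytes through CCR2, went the other way. It read 8.33 and 7.62 in WT, 8.72 and 7.73 in KO and 7.33 and 7.23 in KOWI. Both KOWI values lay below all others, and 2 of 4 KOWI channels were above background, against 4 of 4 in WT and KO. Ccl7 thus entered the fit through WT and KO and not through KOWI, so the filter favoured a negative ratio of KOWI. These ratios are a description and no test is given. The ratio of KOWI over KO was -1.37 and -0.75 (mean -1.06), and that over WT was -0.66 and -0.83 (mean -0.74). In KO over WT it was at 0.71 and -0.08 (mean 0.31, SE 0.24, limma adjusted p = 1.00). In KOWI over KO, Ccl27a was at -0.93 and 0.11 and Ccl6 at -1.09 and 0.14, each with opposite signs in the replicates.

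The epithelial ligands Ccl25 and Ccl28 could not be fitted with outlier spots removed. On the arrays without an outlier mark, Ccl28 in KOWI over KO was at -1.83 and -1.75, while KO over WT gave 0.59 and -0.80. With outlier spots kept, Ccl28 in KOWI over WT was at -0.71 and -2.48 (mean -1.60, SE 0.44, limma adjusted p = 0.169), and its dimmer probe, with 10 of 12 channels above background and no break in the fit, gave -1.04. Ccl25 on unmarked arrays was at -2.27 and -0.67 for KO over WT and at -1.20 and -0.26 for KOWI over KO. With outlier spots kept it was at -1.53 and -1.17 in KOWI over WT (mean -1.35, SE 0.51, limma adjusted p = 0.282). Neither was called.

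Of the other genes set aside, Ccl2, a monocyte chemoattractant, was at 0.52 and 0.65 in KO over WT with outlier spots kept (limma adjusted p = 1.00), and Cxcl16 at 0.13 and -0.02. Ackr3 had opposite signs in KOWI over WT, at -1.16 and 2.40, and Cxcl12 at -1.44 and 0.86. The receptors that could be fitted were Ccr9 and Ackr2, at 0.10 and -0.19 in KO over WT. Ackr2 entered the fit only through WT, with 2 of 4 KO channels above background. Ccl20 was at 0.23 and -1.45 in KOWI over WT, so its replicates had opposite signs.

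A few markers of other cells also differed in KOWI organoids. Against WT, Lck, a T cell kinase, was at 1.36 (limma adjusted p = 0.046). The other fitted T cell marker, Cd247, was at -0.22. It entered the fit only through WT, with 3 of 4 KOWI channels above background, so no test is given for it. Cd53, a pan-leukocyte gene, was at 1.03, and Coro1a, the other fitted general leukocyte marker, at 0.40. Both Cd53 and Coro1a entered the fit only through KOWI, so these 2 ratios are a description and no test is given. Of the defining genes, Ptprc, Cd3e and Cd4 were above background in all 12 organoid channels and Cd52 and Cd3g in 0. In KO over WT, Lck was at 0.99 (limma adjusted p = 0.628) and Cd53 at 0.08 (limma adjusted p = 1.00). Vil1 and Krt20, markers of differentiated epithelium, fell by 1.23 and 1.46 in KOWI over WT (limma adjusted p = 0.0331 and 0.0405). Of the 8 epithelial markers, 6 were negative and 2 positive (median -0.27), and Krt18 was at 0.78 (limma adjusted p = 0.0638). Macrophage and monocyte markers were positive for 3 of 3 (median 0.22), with Mrc1 at 1.57 (limma adjusted p = 0.0787). Neutrophil markers were positive for 1 of 3 and endothelial markers for 1 of 2. Fibroblast markers were positive for 0 of 2 (median -0.59), and 1 of these, Fap, had 2 of 4 KOWI channels above background. The part of all these markers in the chemokine values was not tested.

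Genes that act upstream and downstream of chemokines showed few calls. In KOWI over WT, limma called 0 of 11 fitted NF-κB genes (7 positive, median 0.10), 0 of 12 inducing cytokines and their receptors (4 positive, median -0.22), 0 of 4 processing genes and 1 of 11 receptor signalling genes, beside 3.49% of all genes called higher and 2.14% called lower. That gene was Prex1, a Rac activator downstream of chemokine receptors, which fell by 1.29 (SE 0.17, limma adjusted p = 0.0239). Rgs16, a brake on G protein signalling, was at 1.22 and 0.58 in KO over WT and at 1.01 and 1.68 in KOWI over WT (limma adjusted p = 0.0766), and Il1r1, the interleukin 1 receptor, at 0.55 and 1.78. In KO over WT 0 of 38 genes of these lists were called, beside 0% of all genes. There 1 of them, Rgs16, had an unadjusted p under 0.05, beside 5.51% of all genes. In KOWI over KO 0 of 38 were called, beside 0.424% of all genes, with Prex1 at -1.34 (limma adjusted p = 0.0551). In tissue 0 of 52 were called, beside 0% of all genes. Only Dock2 and Adam17 had an unadjusted p under 0.05 in tissue, beside 14.8% of all genes.

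The KO effect was then compared between tissue and organoids in the 12 genes fitted in both. The difference, tissue minus organoid, passed the threshold for 0 of 12 genes (0% of 8796 genes called over the array), and 5 of 12 had an unadjusted p under 0.05, beside 12.5% of all genes. Cxcl5 was at 0.42 in tissue and 1.86 in organoids, a difference of -1.44 (SE 0.24, limma adjusted p = 0.229). Ccl5 was at -0.01 and 1.24, a difference of -1.25 (SE 0.20, limma adjusted p = 0.229), and Cxcl3 at 0.52 and 1.50, a difference of -0.98 (SE 0.23, limma adjusted p = 0.299). Ccl20 ran the other way at 0.67 and -0.13 (difference 0.80, SE 0.28, limma adjusted p = 0.390). Ackr2 was also higher in tissue, at 0.97 and -0.19, a difference of 1.16. It entered the organoid fit only through WT, with 2 of 4 KO channels above background. The filter thus favoured a negative organoid ratio, so no test is given for Ackr2, which is among the 5 counted above. Cxcl1 was at 0.52 and 1.32 (difference -0.80, SE 0.30, limma adjusted p = 0.399). None of these differences is therefore a call, and tissue and organoids also differ in the Cre line, the injury and the cells present.

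**Figure D4:**
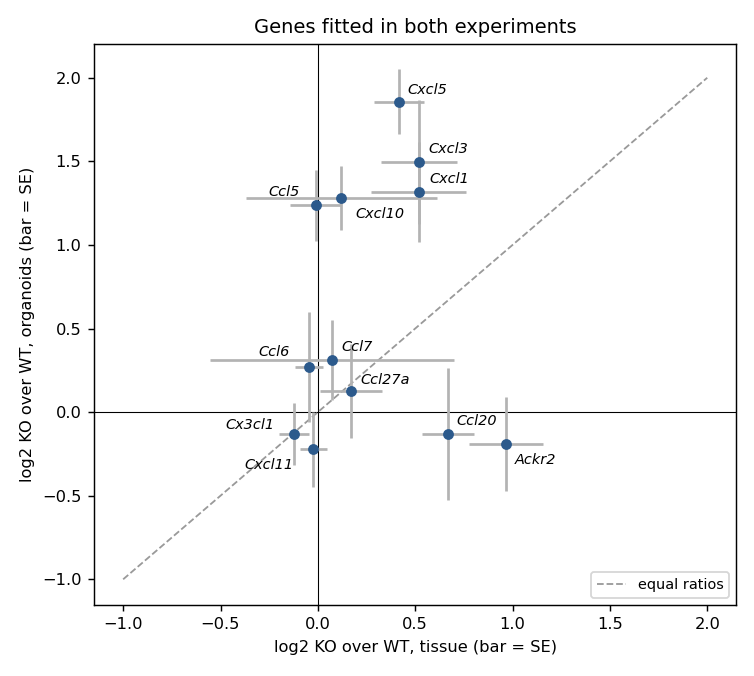
Mean log2 KO over WT in organoids against that in tissue for the 12 genes fitted in both, with SE bars; the dashed line marks equal ratios. Cxcl5, Cxcl3, Cxcl1, Cxcl10 and Ccl5 lay between 1.24 and 1.86 in organoids and between -0.01 and 0.52 in tissue. Ackr2 and Ccl20 lay farthest to the right of the line, and Ackr2 entered the organoid fit only through WT.

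Probes of the same gene did not always read alike. The brighter Cxcl10 probe gave the ratios above, while its other probe was above background in no channel, so the mean over both was 0.94 in KOWI over WT. The 2 probes of Cxcl11 had mean log2 intensities of 15.63 and 8.53 with ratios from -0.26 to 0.04 over all comparisons. Ccl21b has near-identical copies in the genome, so its signal may include theirs.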

How the data were processed

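Per the file headers, the arrays were scanned and read with Agilent Feature Extraction 12.2.0.7 (protocol GE2_1200_Dec17), and the deposited files hold the mean and background intensity of each spot in Cy3 and Cy5. The files also hold the software's log10 ratio, deposited as Cy5 over Cy3, and its flags for outliers, saturation and spots well above background. The authors' deposited value table gives log2 ratios; set against the scanner ratios, its slopes were 0.967 to 0.999 and its direction Cy5 over Cy3, while its centring is not known. The submitters' processing notes name limma.

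Intensities were corrected with normexp (offset 50) and normalised with loess within arrays in limma 3.58.1 (R 4.3.3), control spots were left out, and outlier spots were set to missing. Spots of a probe were averaged, and the brightest probe stood for a gene. Of 56605 probes, 35405 were named by accession, 9124 by symbol, 25 by synonym, and 12051 had no name. The 2 tissue pairs, each hybridised together on 2 arrays with dyes swapped and averaged, were tested as ratios against 0. The pairing comes from the arrays. Organoid samples were placed on 1 scale by least squares over the 6 arrays, which form a loop, and tested by group with the replicate as a term; replicate 1 was always Cy3. Tissue and organoid ratios were compared in a fit of 4 ratios. P-values were adjusted over all genes by Benjamini-Hochberg at 0.05. The fits were tested on simulated data.

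Full values are given for genes with an adjusted p under 0.05 and for the 6 with the smallest p in each comparison. Because of the detection filter, tests are left out for Ccl7 and Cxcl15 in KOWI and for Ackr2 between tissue and organoids. Members of the ligand classes may also be named. Cd53, Lck, Mrc1, Fap, Vil1, Krt20, Krt18, Prex1, Rgs16 and Il1r1 were named after their values were seen. The genes, lists and rules were chosen with earlier results of these data known. For 1 tissue array, title and Cy3 source disagree on the mouse number; the title was followed. The labels do not say whether the WT mice carried Cre. Precision is limited by how few arrays there are. Counts include 1 receptor gene whose values are not reported here or plotted.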

Additional observations from a re-analysis of the deposited data

How the results depend on the processing

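Over 30 gene results and 410 refits, the direction was kept in 406. The 4 reversals came from leaving out single samples: Ccl11, tissue KO over WT, ran from -0.016 (without KO replicate 2) to 1.77; Ccl7, organoid KO over WT, from -0.055 (without KO replicate 1) to 0.66; Ccl27a, organoid KOWI over KO, from -0.88 to 0.021 (without KOWI replicate 1); and Ccl6, organoid KOWI over KO, from -1.08 to 0.081 (without KOWI replicate 1). In tissue, calls went from 0 to 8 of 37 chemokine genes with median centring (6.85% of all genes called) and to 8 of 37 with arrays taken as independent (7.13%), a setting that counts dye swaps as replicates. Arrays taken as independent also gave 5 of 11 in organoid KO over WT (9.10% of all genes), 8 of 11 in KOWI over WT (44.1%) and 4 of 11 in KOWI over KO (29.0%). In KOWI over WT, the 4 calls became 0 on the authors' deposited ratios (0.0274% of all genes called), 2 without a filter on dim probes (1.24%), 1 with outlier spots kept (0.610%), 2 with no replicate block (4.02%), and 3, without Ccl5, with median centring (2.12%), with detection in both groups (4.11%) and with the mean of all probes (2.83%); leaving out single samples gave 0 to 3. In KOWI over KO leaving out single samples gave 0 to 1. Without the pairing as a block, tissue, organoid KO over WT and KOWI over KO had 0 calls, as with it. The difference between tissue and organoids had 0 calls in every refit. Except where a setting's construction shows it, the cause was not tested. With 2 samples in a group and 11 detected organoid genes lost to outlier spots, a missed threshold does not show that a gene did not differ.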

Other observations

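Cxcl5 was the gene with the widest gap between organoid replicates among those called. In tissue, where dyes were swapped, it read 15.02 and 15.31 in the WT mice and 15.62 and 15.54 in the KO mice. Both KO values lay above both WT values, but the pair ratios were 0.60 and 0.23 (limma adjusted p = 0.347) and Cxcl5 was not called there. In organoids its replicate 1 lay above replicate 2 in every group. Dye, replicate and culture cannot be told apart there.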
